A study of Mus musculus and Homo sapiens with 107 samples.

Results

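The 8 genes described here were chosen by their measured falls under BRM014: SH3TC2 (ENSG00000169247) had the largest fall in H1299 cells among genes with a mean of at least 5 CPM, and BDKRB2 (ENSG00000168398), KLHDC7A (ENSG00000179023), C1orf116 (ENSG00000182795), MYO5B (ENSG00000167306), ADGRF4 (ENSG00000153294), RASSF10 (ENSG00000189431) and ADAMTS15 (ENSG00000166106) were 7 of the 10 largest such falls in A549 cells. CPM is a gene's counts scaled to a common library total. They are 8 of the 25530 gene identifiers held by either of the 2 count tables. All 8 had a row for A549, and 6 had one for H1299. BDKRB2 and KLHDC7A were not analysed here in H1299. The falls that chose a gene are given as a description without a test, and tests are kept for the line that did not choose it: A549 for SH3TC2 and H1299 for the others. In the line that chose a gene, having every treated library below every control was also part of the choice.

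A549 and H1299 are established cell lines from human non-small-cell lung cancers, both labelled wild type in this series. Each line had 3 RNA-seq libraries from cells that received 5 µM BRM014 for 12 h and 3 from cells that received the solvent DMSO for 12 h. Titles give the solvent as 0.05% and the treatment field as 0.5%. The lines were grown in different media, and their libraries had 9 (A549) and 8 (H1299) PCR cycles, so line, medium and cycles cannot be told apart. Whether the 3 libraries of a group were grown as separate cultures is not in the labels, and the spread behind the p-values may therefore be technical. The other 95 of the 107 samples of the series were not analysed here.

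BRM014 inhibits, at an allosteric site, the related ATPases BRM and BRG1, which drive the SWI/SNF chromatin remodelling complexes. These complexes move nucleosomes and keep enhancers and promoters open. Both lines are known for lacking functional BRG1, which leaves BRM as the ATPase that the compound can act on. The 8 genes have unlike products. SH3TC2 and MYO5B act with the small GTPase RAB11 at recycling endosomes, the compartments that return membrane proteins to the cell surface. BDKRB2 and ADGRF4 are G protein-coupled receptors of the cell surface, ADAMTS15 is a secreted protease that cleaves proteoglycans of the extracellular matrix, and RASSF10 is an intracellular protein of the Ras-association domain family. KLHDC7A carries kelch repeats, and C1orf116 is known as an androgen-regulated gene.

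Library totals ran from 40684360 to 50177678 counts in A549 and from 28412113 to 41780029 in H1299. Levels are CPM after TMM scaling within a line, as mean ± SD of 3 libraries. They are not divided by gene length, so the comparisons of level are between conditions for 1 gene. Minimum levels, a range of levels and plots also used CPM across genes, without allowing for gene length. In A549, 19.4% of the 15188 genes tested fell and 17.7% rose (edgeR quasi-likelihood test, adjusted p threshold of 0.05). In H1299, 12.7% of 14986 fell and 9.29% rose. The median log2 fold change over all genes tested was 0.017 in A549 and 0.0029 in H1299. These are bulk libraries without usable spike-in counts, so fewer cells with a transcript and less of it per cell cannot be told apart, and every difference is relative to the other genes of the library. The identity of the lines was not tested on marker genes here, because identifiers other than those of the 8 genes could not be matched to names.

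SH3TC2, the RAB11 partner that is mutated in a form of Charcot-Marie-Tooth neuropathy, was nearly lost in both lines. In H1299, the line that chose it, its levels were 11.2, 11.9 and 11.8 CPM in the DMSO libraries and 0.450, 0.572 and 0.650 CPM in the BRM014 libraries. All 3 treated libraries lay more than an order of magnitude below the lowest control. The means were 11.6 ± 0.416 and 0.557 ± 0.101 CPM (n = 3 each), so that 4.79% of the control level was left. The log2 fold change was -4.37 (SE 0.15), and the next largest fall in H1299 among genes with a mean of at least 5 CPM was -3.17. Among all 1904 falls in H1299, SH3TC2 was number 2, behind 1 gene below that level.

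A549 gives the independent readout of SH3TC2, and there the gene fell as well. Its levels were 1.30, 0.950 and 1.19 CPM with DMSO and 0.0461, 0.0218 and 0.0232 CPM with BRM014. The groups were far apart and did not overlap. The 3 control libraries held 156 counts of the gene and the 3 treated libraries 4, a ratio of 38.3 after correction for depth (95% exact interval 14.7 to 142, counting error only). The log2 fold change was -5.13 (SE 0.38, 95% interval -5.97 to -4.29, adjusted p = 7.51e-07, edgeR quasi-likelihood test), lower in 3 of 3 treated libraries. SH3TC2 was number 3 by size among the 2940 falls in A549, and its mean there was below the 5 CPM of the choice. With 1 or 2 counts in each treated library, the size of the fall is less precise than its direction.

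The 4 groups of libraries were ordered as follows for SH3TC2, with no overlap between neighbours: H1299 with DMSO, A549 with DMSO, H1299 with BRM014 and A549 with BRM014. Its level in DMSO was 10.1 times higher in H1299 than in A549. Since a level of at least 5 CPM in H1299 was part of its choice, this gap is a description, and whether the 2 falls differ was not tested.

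**Figure D1:**
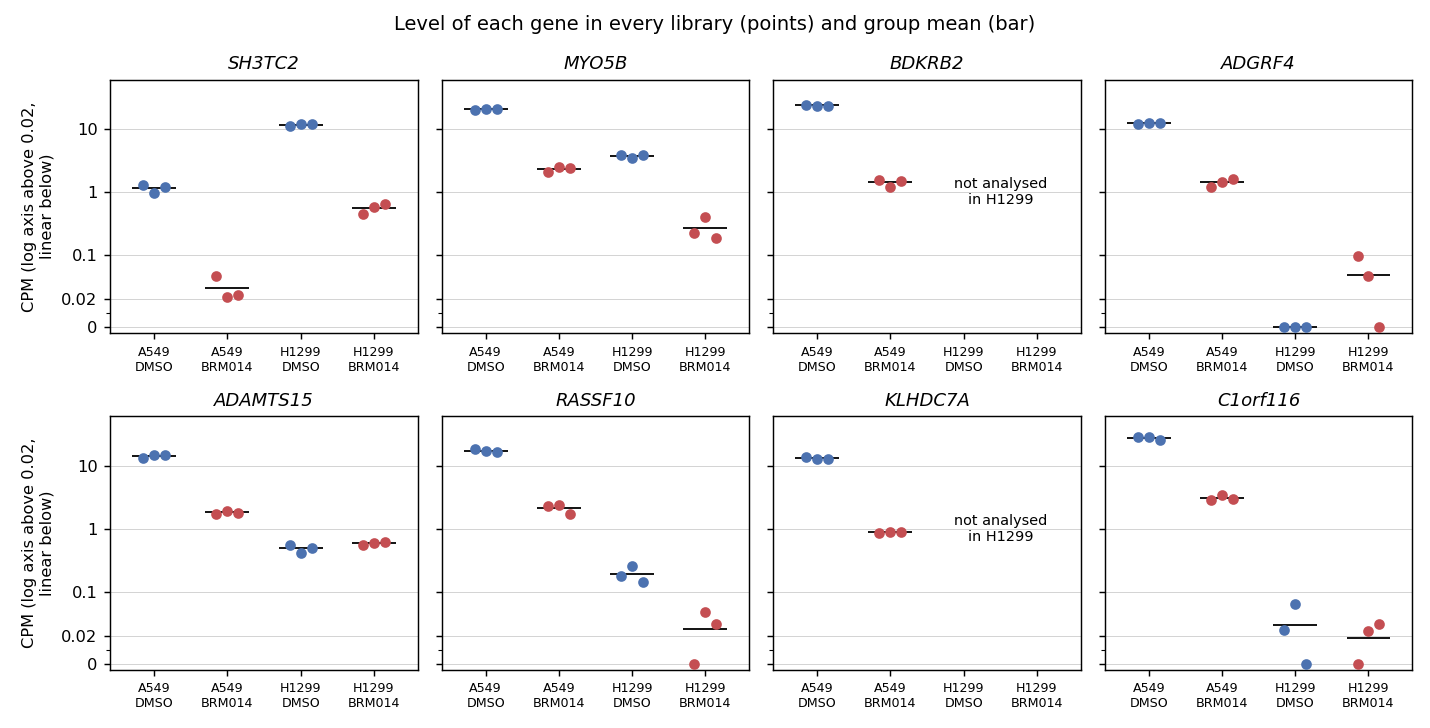
Level of each of the 8 genes (CPM, log axis above 0.02 and linear below) in every library, with DMSO in blue, BRM014 in red and a bar for the mean of 3 libraries. SH3TC2 and MYO5B lie lower with BRM014 in both lines, whereas ADAMTS15 does so in A549 and shows overlapping groups in H1299.

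MYO5B encodes a myosin motor that carries RAB11 endosomes along actin filaments and is mutated in microvillus inclusion disease. It passed the test in the line that did not choose it, as SH3TC2 did. In A549, which chose it, the levels were 19.7, 20.6 and 20.7 CPM with DMSO and 2.10, 2.51 and 2.44 CPM with BRM014. The spread within either group was small beside the gap between them. The mean went from 20.3 ± 0.579 to 2.35 ± 0.221 CPM, which left 11.6% of the control level (log2 fold change -3.11, SE 0.08).

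In H1299, whose libraries played no role in the choice of MYO5B, the gene fell too. It measured 3.87, 3.40 and 3.85 CPM with DMSO and 0.225, 0.405 and 0.186 CPM with BRM014. The highest treated library was below the lowest control. The mean fell from 3.71 ± 0.267 to 0.272 ± 0.117 CPM (367 and 30 counts in 3 libraries each), which left 7.34%. The log2 fold change was -3.69 (SE 0.25, 95% interval -4.21 to -3.18, adjusted p = 3.4e-14, edgeR quasi-likelihood test), lower in 3 of 3 treated libraries. By size this was number 11 of the 1904 falls in H1299. The groups ranked A549 with DMSO, H1299 with DMSO, A549 with BRM014 and H1299 with BRM014, with no overlap between neighbours. The level in DMSO was 5.48 times higher in A549 than in H1299. Since a mean of at least 5 CPM in A549 was part of the choice of MYO5B, this gap is a description.

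Of the 7 genes chosen in A549, 2 had enough counts to be tested in H1299, and 1 of these, MYO5B, fell, against 12.7% of all genes tested there. Neither rose, against 9.29%. The remaining 5 were 3 genes with fewer counts than the test required (RASSF10, C1orf116 and ADGRF4) and 2 that were not analysed (BDKRB2 and KLHDC7A). With 2 genes tested, a share cannot be told from the background.

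ADAMTS15, the secreted protease, is the tested gene that did not pass the threshold in H1299. In A549 its levels were 13.4, 14.7 and 14.9 CPM with DMSO and 1.73, 1.92 and 1.79 CPM with BRM014. The treated libraries lay close to one another and far below the controls. The mean was 14.3 ± 0.801 CPM with DMSO and 1.81 ± 0.0992 CPM with BRM014, with 12.7% left (log2 fold change -2.98, SE 0.09). In H1299 it measured 0.556, 0.417 and 0.500 CPM with DMSO and 0.546, 0.596 and 0.619 CPM with BRM014. These groups overlapped, with 1 treated library below the highest control. The log2 fold change was 0.25 (SE 0.34, adjusted p = 0.678, edgeR quasi-likelihood test). Its 95% interval, -0.44 to 0.93, does not reach the change seen in A549, although the difference between the lines was not tested because the A549 value was used for the choice. The counts behind the H1299 levels were 49 and 62 in 3 libraries each. Without the inhibitor, ADAMTS15 was 29.2 times higher in A549 than in H1299, and its treated A549 level was above both H1299 groups. The minimum level in A549 was part of its choice as well, so this gap is a description.

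BDKRB2, the constitutively expressed receptor for the vasoactive peptide bradykinin, had the largest fall of the 7 genes in A549. It measured 24.2, 23.4 and 22.9 CPM with DMSO and 1.54, 1.22 and 1.49 CPM with BRM014. The treated libraries were all at a small share of any control. The means of 23.5 ± 0.615 and 1.42 ± 0.171 CPM left 6.04% of the control level. The 3164 and 187 counts behind them give a depth-corrected ratio of 16.6 (95% exact interval 14.3 to 19.3). This interval covers counting error only and does not allow for the choice of the gene by these counts. The log2 fold change was -4.05 (SE 0.09).

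KLHDC7A, the kelch-repeat gene, came next. Its levels in A549 were 13.7, 12.9 and 12.6 CPM with DMSO and 0.853, 0.896 and 0.882 CPM with BRM014. It had the most even treated libraries of the 7 genes, with a coefficient of variation of 2.50%. Its 37, 41 and 38 treated counts varied less than counting error gives on average (chi-square 0.024 per degree of freedom). The evenness is therefore not a measured trait of the gene. The mean went from 13.0 ± 0.564 to 0.877 ± 0.0219 CPM, with 6.72% left and a log2 fold change of -3.89 (SE 0.10). The ratio was 14.9 (95% exact interval 12.3 to 18.1, with the same limits as for BDKRB2).

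The other 3 genes kept more of their control level, as MYO5B and ADAMTS15 did. ADGRF4, an orphan receptor of the adhesion family of G protein-coupled receptors, measured 12.1, 12.5 and 12.4 CPM in A549 with DMSO and 1.20, 1.46 and 1.63 CPM with BRM014. C1orf116 measured 27.9, 28.2 and 25.6 CPM with DMSO and 2.88, 3.45 and 3.00 CPM with BRM014. RASSF10, a gene often silenced by promoter methylation in tumours, measured 18.5, 16.9 and 16.5 CPM with DMSO and 2.28, 2.38 and 1.74 CPM with BRM014. None of these control and treated groups overlapped, which the choice required. The share left was 11.6% for ADGRF4 (log2 fold change -3.11, SE 0.10), 11.4% for C1orf116 (-3.13, SE 0.08) and 12.3% for RASSF10 (-3.02, SE 0.11). RASSF10 had the widest treated libraries of the 7 genes, with a coefficient of variation of 16.1%.

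**Figure D2:**
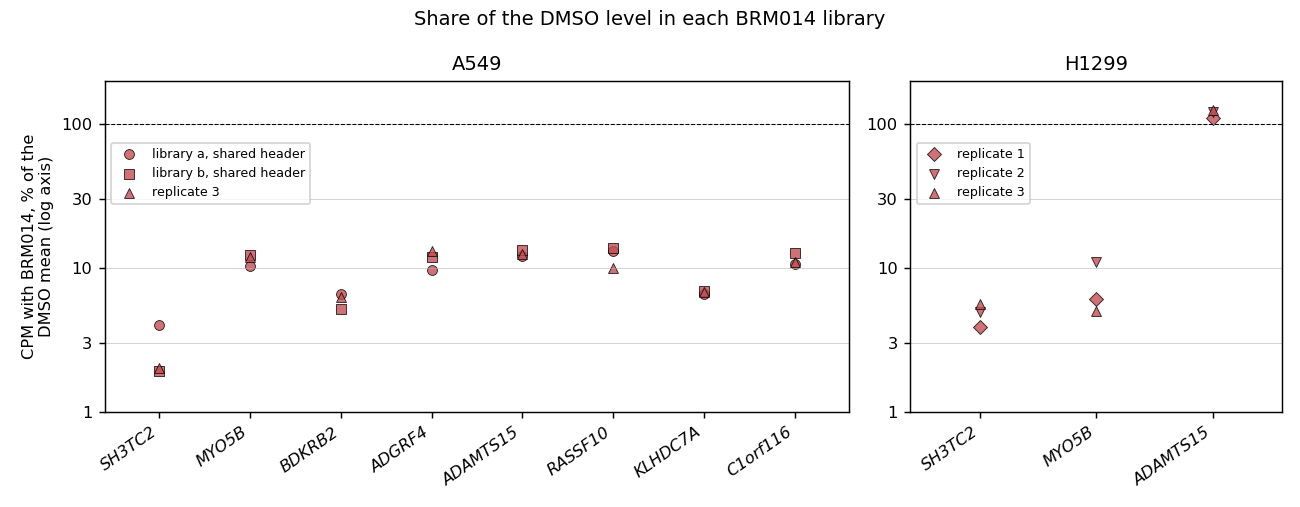
Level in each BRM014 library as a percentage of the mean of the 3 DMSO libraries of its line (log axis, dashed line at 100%), for the 8 genes in A549 and the 3 tested genes in H1299, 1 symbol for each library. In A549 BDKRB2 and KLHDC7A keep 6.04% and 6.72%, the other 5 genes chosen there 11.4% to 12.7% and SH3TC2 2.65%.

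The 7 genes chosen in A549 thus kept 6.04% to 12.7% of their control level, with a median of 11.6%. BDKRB2 and KLHDC7A, at 6.04% and 6.72%, stood below the other 5, which lay between 11.4% and 12.7%. This order is part of what the choice used and was not tested. Of the 2 treated A549 libraries whose columns share the header of replicate 1, one was the lowest of the 3 for 5 of the 7 genes and the other was the highest for 5. Some of these orders lie within counting error, as for KLHDC7A with 37, 41 and 38 counts. Shares over all genes are not given, so no library effect is inferred. Leaving out both libraries of shared header moved 1 of the 7 falls by more than the spread between replicates, that of RASSF10, from -3.02 to -3.34.

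The edge of the choice fell within a close series of values. ADAMTS15 was the tenth of the 10 largest falls among the 2151 genes that fell in A549 with a mean of at least 5 CPM and with groups that did not overlap. Ranks 1, 4 and 8 of these 10, at log2 fold changes of -4.40, -3.42 and -3.08, are not among the genes described here. The largest such fall in A549 is thus outside the set. The eleventh gene, also left out, went from 22.7 to 2.95 CPM with a log2 fold change of -2.94, against -2.98 for ADAMTS15. The minimum level also shaped the set, since 42 genes below it had larger falls than ADAMTS15. Among all 2940 falls, BDKRB2 was number 14, KLHDC7A 16, C1orf116 41, MYO5B 42, ADGRF4 43, RASSF10 51 and ADAMTS15 52.

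**Figure D3:**
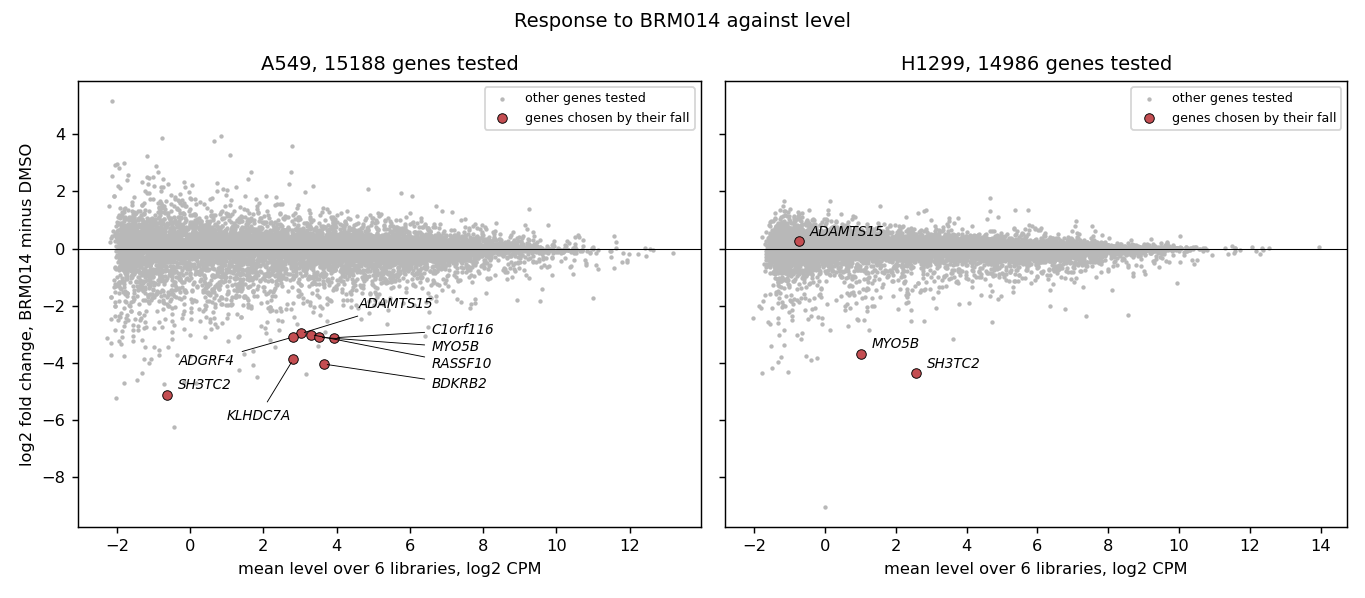
Log2 fold change (BRM014 minus DMSO) against mean level over the 6 libraries of a line (log2 CPM) for every gene tested, with the named genes in red. In A549 the 7 genes chosen there lie together at -4.05 to -2.98, and in H1299 MYO5B at -3.69 and SH3TC2 at -4.37 lie far below ADAMTS15 at 0.25.

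Most of the genes chosen in A549 were scarce or not detected in untreated H1299 cells. RASSF10 had 7, 8 and 4 counts in the DMSO libraries of H1299 and 0, 2 and 1 with BRM014. The groups did not overlap, and the ratio after correction for depth was 6.76 (95% exact interval 1.99 to 35.7), on too few counts to enter the test. A joined analysis of the 12 libraries, with a filter over both lines, kept RASSF10 through its A549 counts. It gave a log2 fold change of -2.62 in H1299 (SE 0.711) with an adjusted p of 0.0113 (edgeR quasi-likelihood test). The A549 libraries that chose RASSF10 thus let it pass the filter and entered its estimated spread, so this is not an independent test. In that analysis 9.15% of 16466 genes fell in H1299. In H1299 alone, without any filter on low counts, the same fold change had an SE of 0.991 and an adjusted p of 0.053 (edgeR).

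C1orf116 had 1, 2 and 0 counts in the H1299 libraries with DMSO and 0, 1 and 1 with BRM014. These are at the limit of detection, and the ratio of 1.60 had a 95% exact interval of 0.183 to 19.2. ADGRF4 had 0 counts in all 3 DMSO libraries, which allows a level of up to 0.0304 CPM over the group, and 3, 2 and 0 counts with BRM014. A difference in either gene was not detectable at this depth.

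Of the 7 genes chosen in A549, 1 (MYO5B, 14.3%) reached 1 CPM in H1299 with DMSO, with the 2 genes that were not analysed counted as not reaching it. Of the 2190 other A549 genes whose level in DMSO lay in the same range, 12.4 to 27.3 CPM, 2063 (94.2%) reached it, and so did 82.3% of all other genes tested in A549. Among the 156 other genes that fell at least 4-fold in A549 the share was 23.7%. Within the same range of levels, 10 other genes fell at least 4-fold, and 4 of these reached 1 CPM in H1299. The range was chosen to match these 7 genes after their values were known, and the levels of the 2 lines were scaled separately. It matches genes by counts and not by transcript number, since CPM is not divided by gene length.

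**Figure D4:**
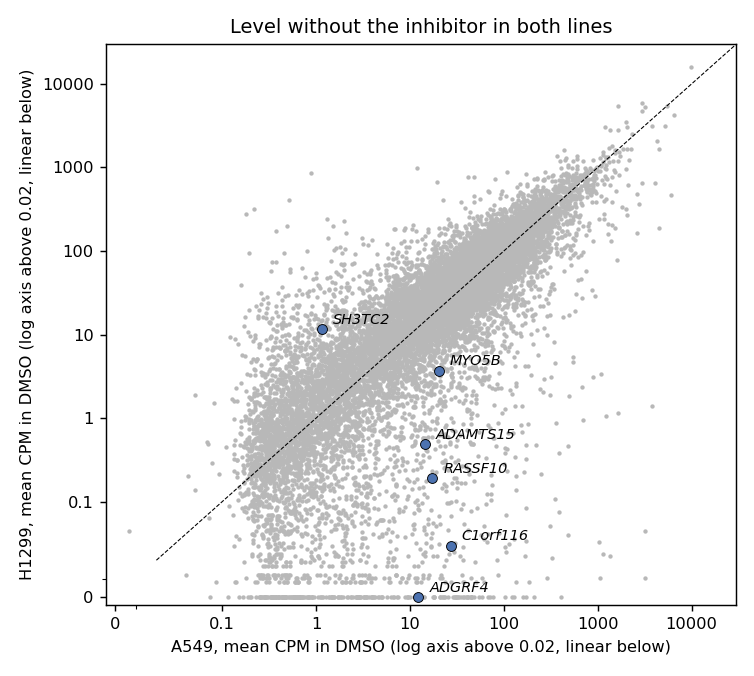
Mean CPM with DMSO in A549 (horizontal) and H1299 (vertical), both log above 0.02 and linear below, for all genes tested in A549 that have a row in H1299, with a dashed line of equality. SH3TC2 lies above the line at 1.15 and 11.6 CPM, and the 5 other named genes lie below it, ADGRF4 at 0 in H1299.

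Genes with large falls in one line mostly fell in the other where they could be tested. Of the 156 genes other than the 8 that fell at least 4-fold in A549, 52 were tested in H1299, of which 37 (71.2%) fell and 0 rose. Of all genes tested there, 12.7% fell and 9.29% rose. The median log2 fold change of the 52 was -1.53. MYO5B, at -3.69 in H1299, lay below that median and ADAMTS15, at 0.25, above it. Of the 62 other genes that fell at least 4-fold in H1299, 39 were tested in A549. Of these, 36 (92.3%) fell, against 19.4% of all genes tested there, and the median of the 39 was -2.03. SH3TC2, at -5.13 in A549, was below that median. Genes that fell at least 4-fold in both lines are in both sets, so the 2 shares are not separate.

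The genes most like each of the 8 across libraries were found by the root mean square (RMS) difference of log2 CPM centred on each gene's mean, where 0 is an identical pattern. Over the 12 libraries and 16466 genes, none of the 6 genes present in both tables had another of them among its 3 nearest. The gene nearest to MYO5B was ENSG00000167767 (RMS difference 0.340), which went from 151 to 17.8 CPM in A549 and from 22.5 to 2.52 CPM in H1299. The gene nearest to ADAMTS15 was ENSG00000026751 (0.234), which went from 1.11 to 0.0990 CPM in A549 and was at 0 counts in H1299. Its log2 CPM in H1299 is therefore set by the prior count of 2 that is added before the log. C1orf116 and ADGRF4 were the closest pair within the set, at 0.792. Both had at most 3 counts in any H1299 library, where the prior count weighs as much, so their likeness rests mainly on A549 and on the line difference. SH3TC2 had no close partner, its nearest gene being at 1.08.

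Over the 6 A549 libraries alone and 15188 genes the 8 genes lay closer together, but 7 of them were chosen by their falls in these libraries. MYO5B had ADGRF4 (0.0686), C1orf116 (0.0810) and ADAMTS15 (0.0892) as its 3 nearest of all genes. BDKRB2 and KLHDC7A were nearest to each other at 0.151, and SH3TC2 was nearest to BDKRB2 at 0.164. With 1 or 2 counts in each treated library, the log2 CPM of SH3TC2 there depends on the prior count of 2. Its log2 fold change in A549 was -5.13, against -4.05 for BDKRB2, so their closeness is uncertain. The 21 pairs of the 7 genes chosen in A549 differed by 0.0686 to 0.556, with a median of 0.252. The libraries share 1 line and 1 treatment contrast, so these values are a description.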

How the data were processed

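For each line the authors deposited 1 table of unnormalized whole-number counts. The submitters' processing notes name STAR 2.7.3a, Bowtie 1.2.2, featureCounts, cutadapt 1.14, DESeq2 and build hg38. The sources used here give no role for these tools, no annotation and no strand setting, so counts of overlapping or antisense genes are uncertain. Per the labels' protocols, libraries were stranded total RNA depleted of ribosomal RNA, made from 500 ng of RNA with spike-ins added by cell number. No row is named for the spike-ins, and they were not used.

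Genes were kept by filterByExpr (edgeR 4.0.16, R 4.3.3; minimum count 10, minimum total 15), scaled with TMM and tested within each line by the two-sided quasi-likelihood test with Benjamini-Hochberg adjustment over all genes at 0.05. The SE was obtained by dividing a log2 fold change by the root of its F statistic. Intervals of count ratios are exact binomial, at 95%, and cover counting error only, and a count of 0 was given a floor of 3 counts over the group. Log2 CPM used a prior count of 2. The procedure was run on counts simulated from the means and dispersions it had estimated, which does not test its model. Alternatives were DESeq2 size factors, library totals, DESeq2 1.42.0, limma-voom (limma 3.58.1), other filters, a joined fit, a replicate block and each library left out.

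The 8 genes, the lists and the tests were chosen with earlier results of these data known. The rule for named genes took all 8 in both lines and the 3 genes most like each, of which 2 identifiers are printed. In A549, 2 BRM014 columns carry the same header, that of replicate 1. They were used as replicates of the group without a number, and their counts differed beyond sampling noise (chi-square 4.99 per degree of freedom, against 2.20 to 11.1 over the 12 pairs within groups). The reference tables matched 0 of the 25530 identifiers. Names of the 8 genes therefore come from the rule that chose them. Related gene lists, neighbouring genes, promoters, proteins, positions and cell markers were not analysed here.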

Additional observations from a re-analysis of the deposited data

How the results depend on the processing

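The number of genes chosen in A549 that fell in H1299 was 1 (MYO5B) in 12 of the 13 alternatives that gave a value. It was 2 in the joined fit of the 12 libraries, which kept RASSF10 through its A549 counts and called it. That call draws on the A549 libraries that chose RASSF10 and is not independent of the choice. Of the 7 genes, 5 were tested in the joined fit and without a filter, and 2 in each other alternative that gave a value. Without a filter RASSF10 was tested and not called (edgeR adjusted p = 0.053). The cause was not tested. With a filter of 5 CPM none of the genes chosen in A549 was tested in H1299, and SH3TC2 was not tested in A549. The log2 fold change of SH3TC2 in A549 ran from -5.53 to -4.84 over 13 alternatives, with adjusted p from 7.33e-12 to 2.07e-05 over edgeR, DESeq2 and limma-voom. That of MYO5B in H1299 ran from -4.15 to -3.49 (adjusted p 3.86e-50 to 1.11e-10, edgeR, DESeq2 and limma-voom), and that of ADAMTS15 in H1299 from 0.14 to 0.36 (adjusted p 0.606 to 0.863). In the lines that chose the genes, 109 of 110 alternative values moved by less than the spread between replicates. The exception, chosen after seeing the data, was RASSF10 at -3.34 without both A549 BRM014 libraries of shared header. Replicate numbers are shared by the H1299 groups, but same-numbered libraries did not deviate together (r = -0.024, -0.028 and 0.0077). With a replicate block, edgeR gave 1 gene that fell, with MYO5B at -3.69 and ADAMTS15 at 0.26. No block was fitted for A549, where 2 treated columns share the header of replicate 1 and which of them is replicate 2 is not known. Scaling by library totals instead of TMM shifted the median over all genes by 0.050 in A549 and 0.032 in H1299 (log2). Depth limits SH3TC2 in treated A549 cells (4 counts) and RASSF10, C1orf116 and ADGRF4 in H1299. The lists of related genes and neighbouring genes were not run.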
